A study of Homo sapiens with 2 samples.

Results

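A single 5-kb bin on chromosome 6, at chr6:99590001-99595000 (hg38), carried 40 of the 49245 interactions listed for TCF3::HLF, and it lies between the genes CCNC and PRDM13. The members described here were chosen by the number of listed interactions of this bin, called the hub below, together with every interaction that has a bin within the body of PRDM13 or CCNC or 10 kb around it. They came to 47 interactions of the 49245 in the list. The hub accounted for 40 of them, the PRDM13 window for 7 and the CCNC window for 2, with 1 interaction shared by the hub and CCNC and 1 shared by PRDM13 and CCNC. Because the number of interactions and everything measured on the same read pairs entered this choice, the contact counts, distances and ranks below are descriptions and carry no test.

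The cells were HAL-01, a leukemia cell line with the translocation t(17;19) that produces the fusion transcription factor TCF3::HLF. All samples had the same genotype, with Cas9GFP stably expressed, wild-type TCF3 knocked out (wt-TCF3 KO) and the fusion retained, and no untreated or control sample was analysed here. HiChIP, which combines chromatin immunoprecipitation with proximity ligation, was carried out with an antibody against E2A, another name for TCF3, so that after the knockout the antibody recovers the fusion protein. The knockout line was grown from selected cells and represents 1 leukemia line, so the values describe that line. The 2 replicates were merged by the authors before interactions were called. The spread between replicates is therefore not known for any value below. A contact count is the number of read pairs that join the bins of an interaction, and its exact Poisson 95% interval covers counting error only. Duplicate read pairs were not removed, so the interval is a lower limit of the error. The contact counts of the whole list add up to 1268490, with a median of 24 and a range from 7 to 615.

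PRDM13 encodes a zinc finger protein of the PRDM family, which carries a PR domain related to histone methyltransferase domains. It is known for specifying inhibitory neurons in the dorsal spinal cord and amacrine cells in the retina, and changes in the noncoding DNA upstream of it are known from an inherited macular dystrophy. CCNC encodes cyclin C, the cyclin partner of CDK8 and CDK19 in the kinase module of Mediator, the complex that links transcription factors to RNA polymerase II. HLF is a basic leucine zipper protein of the PAR family that binds a palindromic motif as a dimer, and the fusion protein keeps this DNA-binding part. A HiChIP interaction reports that a pair of regions was close in space where at least 1 of them was recovered with the antibody, and it does not by itself report which gene responds.

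The hub is intergenic. It starts 102 bases past the end of TSTD3 (chr6:99520976-99589899, plus strand), ends 11774 bases before the start of PRDM13 (ENSG00000112238.12, chr6:99606774-99615578, plus strand) and starts 21176 bases beyond the start site of CCNC (ENSG00000112237.13, chr6:99542387-99568825, minus strand). No annotated transcript of a protein-coding or long noncoding RNA gene starts within it, and its GC content was 43.4%. Only these classes of gene were searched at the bins, and intergenic and gene-free are meant in that sense throughout. The HLF motif was searched as TTACGTAA or TTATGTAA on both strands, and a wider form also allowed TTACGCAA or TTACACAA, so that every HLF motif also counts as a match to the wider form. The hub held 1 HLF motif and 2 further matches to the wider form. These sites are shown because they are the only letters of either form in the bin, with the match in capitals and 20 bases of the hg38 plus strand on each side. A TTACATAA on the plus strand is TTATGTAA read on the other strand.
Hub, HLF motif, chr6:99593115-99593162: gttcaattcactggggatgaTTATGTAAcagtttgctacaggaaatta
Hub, wider form, chr6:99592473-99592520: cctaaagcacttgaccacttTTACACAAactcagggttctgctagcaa
Hub, wider form, chr6:99593216-99593263: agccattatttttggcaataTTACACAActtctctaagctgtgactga

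The partner bins with the largest contact counts on either side of the hub each held 1 HLF motif as well, and the partner bin inside PNISR and its antisense transcript held 2. They are shown because they hold the motif, so that the letters at both ends of these contacts can be set beside each other. Strength and motif did not go together throughout, since the next strongest partners, at 99760001, 99650001, 99665001 and 99695001, held 0 HLF motifs, and the PNISR bin had fewer read pairs than any of these 4. The bin next to the hub on the PRDM13 side, which joined other regions in 2 interactions, also held 1.
Partner 155 kb above, HLF motif, chr6:99747247-99747294: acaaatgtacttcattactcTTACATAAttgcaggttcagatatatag
Partner 155 kb below, in USP45, HLF motif, chr6:99438474-99438521: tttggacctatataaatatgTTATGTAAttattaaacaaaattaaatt
Partner 170 kb below, in PNISR, first HLF motif, chr6:99423249-99423296: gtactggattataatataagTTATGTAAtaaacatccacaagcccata
Partner 170 kb below, in PNISR, further HLF motif, chr6:99423350-99423397: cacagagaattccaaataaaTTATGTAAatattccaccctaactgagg
Bin beside the hub toward PRDM13, HLF motif, chr6:99597702-99597749: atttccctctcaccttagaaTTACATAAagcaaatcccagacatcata
All 5 of these matches are the TTATGTAA form, as is the motif of the hub. The same holds for every other HLF motif in the member bins, so the form does not set these sites apart. Its share over all anchor bins was not counted. Between the hub and its partners, at most 15 stretches of 31 bases were shared, and 7 of the 40 partners shared any. The same was not counted for other anchor bins, so this number has no scale beside it.

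By number of interactions the hub ranked 6 among 53535 anchor bins, level with an anchor bin on chromosome 2 and 1 on chromosome 9. The next bins in the order had 39 and 38 interactions, and the densest other bin of chromosome 6 had 49. Of all anchor bins, 2.10% had 10 or more interactions. The number fell off within a single bin. The adjoining bins had 1 interaction on the CCNC side and 2 on the PRDM13 side, and the next bins outward had 0. FitHiChIP, the program that called the interactions, merges neighboring significant bin pairs into a group, and in 36 of the 40 interactions the group held only the hub bin on the hub side. Within 3 Mb of the hub there were 103 anchor bins, and the densest of them after the hub had 11 interactions.

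**Figure D1:**
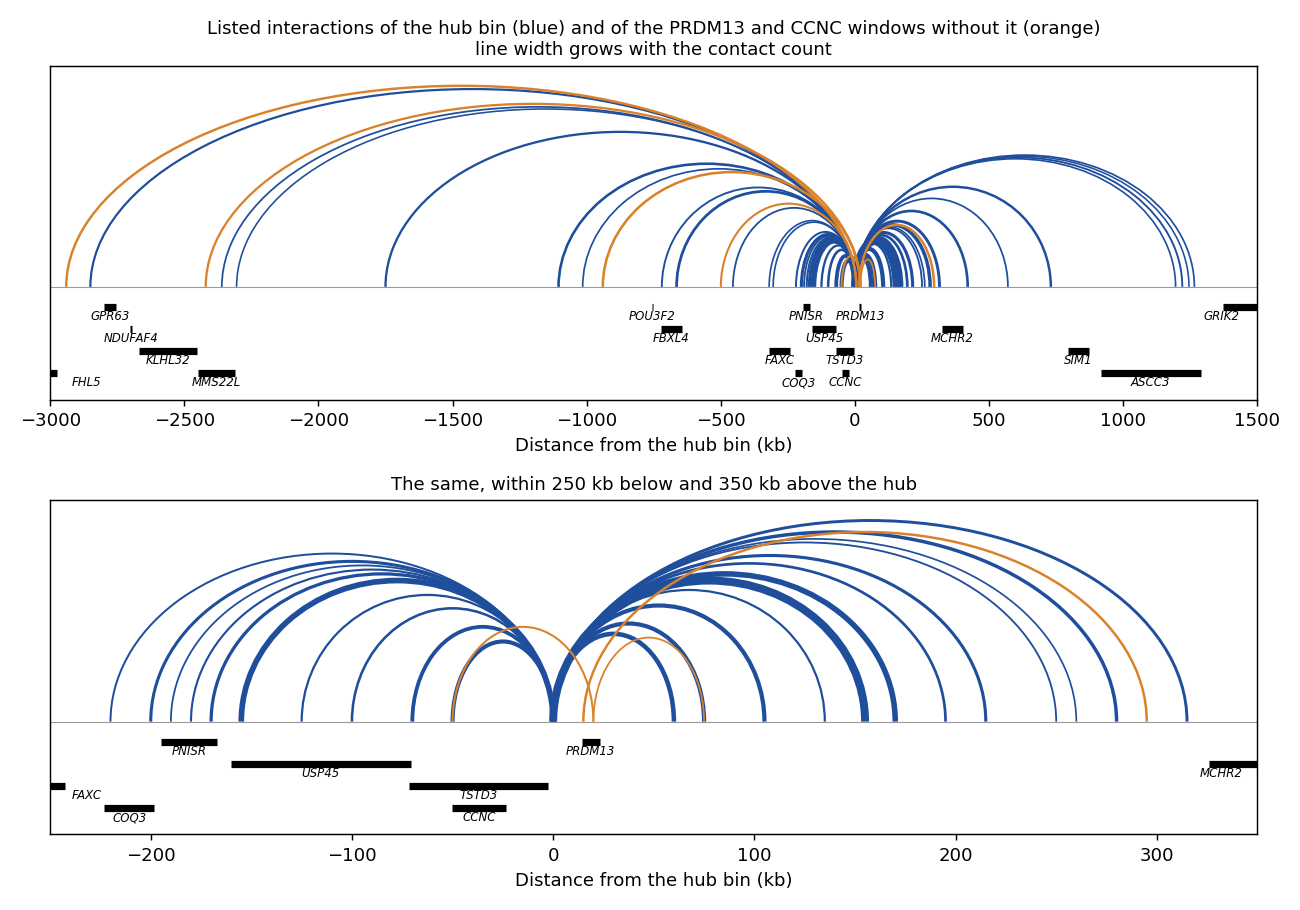
Listed interactions of the hub bin (blue) and of the PRDM13 and CCNC windows without the hub (orange), drawn as arcs over the distance from the hub in kb, with gene bodies as black bars and line width growing with the contact count. The upper panel shows the whole range, and the lower panel the surroundings of the hub, where the thickest arcs reach 155 kb to either side.

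The 40 interactions were spread over both sides, with 21 toward lower coordinates (52.5%, Wilson 95% interval 37.5 to 67.1) and 19 toward higher coordinates (47.5%, 32.9 to 62.5). The lower side contains CCNC and a row of further genes, and the higher side starts with PRDM13 and then has few genes. The contact counts were larger above the hub, with 747 read pairs below (45.1%) and 910 above (54.9%). The median contact count was 29 below and 39 above. In distance the sides differed in their reach. The farthest partner below lay 2.85 Mb away and the farthest above 1.265 Mb away, while the longest distance the caller considers is 3 Mb. The median distance of all 40 was 270 kb (95% interval, 190 to 570 kb), beside 255 kb for the list. Of the 40 interactions, 10 (25%) spanned over 1 Mb, beside 13.7% of the list.

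The largest contact count of the hub joined it with chr6:99745001-99750000, an intergenic bin 155 kb above, on the far side of PRDM13. It was 157 read pairs (95% interval, 133 to 184), with the caller's P value of 7.03e-119 and q-value of 6.91e-115. This count ranked 17 in the whole list and 2 among the 456 interactions of the same distance, whose median was 24. It was 6.54 times that median. The same merged group also contained partner bins at 99695001 (73 read pairs), 99725001 (29) and 99760001 (103, 84.1 to 125). Its bins ran from 99695001 to 99770000 opposite the hub and its 2 neighbors. The deposited share of significant bin pairs in this group was 0.356, and its summed contact count (sumCC) was 993. All 4 partner bins lie between PRDM13 and MCHR2, where no annotated protein-coding or long noncoding RNA gene overlaps them.

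At the same distance on the other side, 155 kb below, the hub had its next largest contact count, 106 read pairs (86.8 to 128), with chr6:99435001-99440000. This bin lies within USP45, which encodes a deubiquitinase, and has start sites of PNISR and PNISR-AS1 within 10 kb. The count was 4.42 times the median at this distance, and its P value was 1.25e-69. The intervals of the contacts with 157 and 106 read pairs do not overlap, whereas those with 106 and 103 cannot be ordered beyond counting error. Only 3 of the 40 contact counts (7.5%) reached 100, beside 0.195% of the list, and all of them were at 155 or 170 kb. Closer partners had lower counts. The bin 60 kb above, at 99650001, had 80 read pairs (63.4 to 99.6), and the bins 75 and 105 kb above, at 99665001 and 99695001, had 73 each (57.2 to 91.8). The 5 largest contact counts together made up 519 of the 1657 read pairs of the hub (31.3%).

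**Figure D2:**
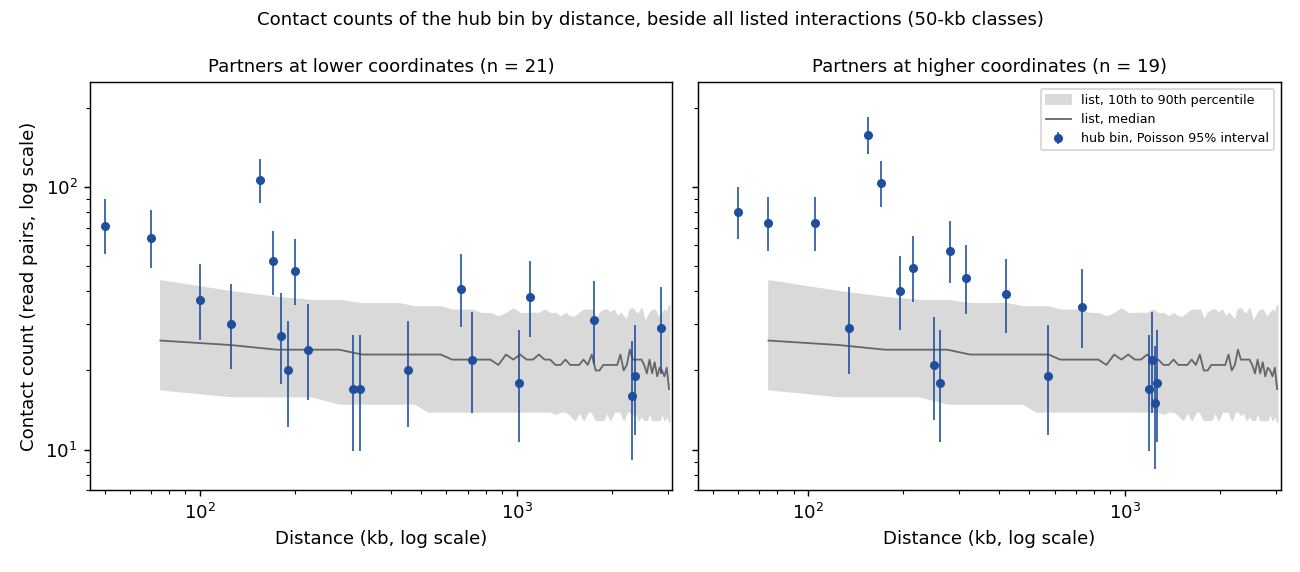
Contact count (read pairs, log scale) of each hub interaction against its distance (kb, log scale), for partners below the hub (left, n = 21) and above it (right, n = 19), with exact Poisson 95% intervals. The grey line and band are the median and the 10th to 90th percentile of all listed interactions in 50-kb classes. The points at 155 kb stand highest on both sides, at 106 and 157 read pairs, and the points beyond 1 Mb lie within or near the grey band.

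For comparison over distance, each contact count was divided by the median of all listed interactions at the same bin distance. The median of this ratio over the 40 interactions was 1.32 (95% interval, 0.957 to 1.82). The count was above the median in 24 (60%), equal to it in 2 and below it in 14, beside 47.6% of the list above it. At least 2 times the median was reached by 12 (30%), beside 3.20% of the list. Since the hub was picked for being dense in the same data, these shares are not evidence about the bin beyond its selection.

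The excess lay close to the hub. Up to 200 kb below, 8 of 9 counts were above the median and 5 reached at least 2 times the median, and up to 200 kb above, 7 of 7 and 5 did. Between 200 kb and 1 Mb the sides parted. Below, the median count was 21 and 1 of 6 counts was above the median at its distance. Above, the median count was 37 and 5 of 8 were. Beyond 1 Mb, 2 of 6 below and 1 of 4 above exceeded it, and the counts ran from 15 to 38. A q-value under 1e-05 was reached by 24 of the 40 (60%), which is near the 66.5% of the list.

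The genes at the partner bins lay mostly below the hub. Of the 21 partner bins on that side, 15 (71.4%, 50 to 86.2) overlapped a protein-coding gene and 13 (61.9%, 40.9 to 79.2) had a start site within 10 kb. Both intervals include the shares of all anchor bins, 57.4% and 47.9%. The partner bins share 1 hub, and nearby bins can count the same start site, so they are not independent. The intervals therefore describe these shares and do not serve as a test. Above the hub, 4 of 19 (21.1%, 8.51 to 43.3) overlapped a protein-coding gene, all of them ASCC3, and 1 of 19 (5.26%, 0.935 to 24.6) had a start site within 10 kb, of the noncoding MCHR2-AS1. A start site within the bin itself was present in 5 of the 40 (12.5%, 5.46 to 26.1), beside 16.4% of all anchor bins.

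The start-site bins and their neighbors formed a row along the genes next to CCNC. The bin at 99520001, which holds the start sites of both USP45 and TSTD3, had 64 read pairs with the hub (49.3 to 81.7) at 70 kb, 2.46 times the median. TSTD3 encodes a protein with a thiosulfate sulfurtransferase domain. The bin at 99390001, with start sites of COQ3, a methyltransferase of coenzyme Q synthesis, had 48 (35.4 to 63.6) at 200 kb, 2.04 times the median. PNISR, which encodes a nuclear protein rich in arginine and serine, had start sites in the bins at 99400001 and 99410001, with 20 (12.2 to 30.9) and 27 (17.8 to 39.3) read pairs. These are 0.8 and 1.08 times the median, with intervals that include it. The bin at 99420001, where PNISR-AS1 starts and which carries the pair of HLF motifs shown above, had 52 (38.8 to 68.2) at 170 kb, 2.17 times the median. Within USP45, the bin at 99465001 had 30 read pairs (20.2 to 42.8) where the median was 26, and the bin at 99490001 had 37 (26.1 to 51), 1.48 times its median of 25.

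Farther below, FBXL4, which encodes an F-box protein that acts at mitochondria, had partner bins at 98925001 and 98870001. The first had 41 read pairs (29.4 to 55.6) at 665 kb, 1.82 times the median, and the other 22 (13.8 to 33.3) at 720 kb, where the median was 23. FAXC, named after a fly gene of axon connections, had 17 read pairs at each of its bins at 99270001 and 99285001, 0.739 and 0.708 times the median. The most distant gene joined to the hub on this side was MMS22L, a protein of replication fork repair. Its bin at 97230001 had 19 read pairs (11.4 to 29.7) over 2.36 Mb, and the bin at 97285001 just upstream of its start, in a noncoding transcript (ENSG00000271860), had 16 over 2.305 Mb. The farthest partner of all, the gene-free bin at 96740001, had 29 (19.4 to 41.6), which equals the median of 11 interactions at that distance.

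Above the hub, the gene-free bins at 99805001, 99870001 and 99905001 had 49, 57 and 45 read pairs at 215, 280 and 315 kb, which is 2.09, 2.28 and 1.88 times the median. Other gene-free bins around them had lower counts, some below and some above the median at their distance. Those at 99840001 and 99850001 had 21 and 18 read pairs, 0.875 and 0.783 times the median, and the bin at 100160001 had 19, 0.905 times. In contrast, the bin at 100320001 had 35 (24.4 to 48.7) at 730 kb, 1.71 times the median. Closer to the hub, the bin at 99785001 had 40 (28.6 to 54.5) at 195 kb, 1.67 times the median. The bin at 99905001 falls within 10 kb of MCHR2, a receptor for melanin-concentrating hormone. The bin at 100010001 in MCHR2-AS1 had 39 (27.7 to 53.3) at 420 kb. After a stretch of 465 kb without a partner, which contains SIM1, the hub reached ASCC3, a helicase subunit of the ASC-1 complex. There, 4 bins within 75 kb had 17, 22, 15 and 18 read pairs, with ratios from 0.612 to 1.05, and the intervals of these 4 counts overlap each other.

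CCNC itself was joined to the hub once. The interaction ended at chr6:99540001-99545000, which covers the 3′ end of CCNC and part of TSTD3, at exactly 50 kb, the shortest distance the caller considers. It had 71 read pairs (55.5 to 89.6), a q-value of 2.95e-24, and 2.63 times the median of the 1393 interactions at that distance. The merged group held the adjoining bin too, with a sumCC of 105. The other interaction of the CCNC window joined the same bin with the 3′ part of PRDM13 at 99610001, with 25 read pairs (16.2 to 36.9) at 70 kb, where the median was 26. Of the 19 annotated CCNC transcripts, 16 start in the bin at 99565001, 2 in the bin at 99560001 and 1 in the bin at 99545001. None of these bins had a listed interaction, to the hub or to any other region. They lie 25, 30 and 45 kb from the hub, below the shortest distance, so contacts between the hub and the CCNC start sites could not be measured here.

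PRDM13 was likewise not joined to the hub, and could not be, because its start bin lies 15 kb away. Its 7 interactions went to other places. The start bin at 99605001, where both annotated transcripts (2 of 2) begin, had 1, to the gene-free bin at 99885001 280 kb above. That interaction had 35 read pairs (24.4 to 48.7), a q-value of 4.61e-15, and 1.4 times the median. At the same distance of 280 kb the hub itself had 57 read pairs with the bin at 99870001.

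The rest of PRDM13, in the bin at 99610001, had 4 interactions. They led to MMS22L at 97170001 over 2.44 Mb with 31 read pairs (21.1 to 44), to the gene-free bin at 98650001 over 960 kb with 37 (26.1 to 51), to the CCNC and TSTD3 bin at 99540001 with 25, and to the bin at 99665001 55 kb above with 19 (11.4 to 29.7). The count with 99665001 was 0.731 times the median at its distance. The remaining 2 interactions started from the bin between the hub and PRDM13, at 99595001, whose HLF motif is printed above. They reached the gene-free bins at 96650001, 2.945 Mb away, with 34 read pairs (23.5 to 47.5), and at 99090001, 505 kb away, with 26 (17 to 38.1). Both of these far bins held an HLF motif of their own and had 7 and 9 interactions in all. In all, 5 of the 7 interactions of the PRDM13 window pointed below the hub, passing over it.

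The partners of the hub had few interactions with anything else. Of the 40 partner bins, 37 (92.5%, 80.1 to 97.4) had no other listed interaction, beside 78.0% of all anchor bins. A number of 10 or more was reached by 0 (Wilson upper limit, 8.76%). This limit includes the 2.10% of all anchor bins, so the 0 does not set the partners apart. The partner bins with another interaction were those at 99540001, 99665001 and 99760001, with 2 interactions each. For the first 2 of them the other interaction was the one with PRDM13 at 99610001 given above. Of the 714 pairs of partner bins that lie within the range of the caller, 0 were joined by a listed interaction. The share over other bin pairs at these distances was not counted, so this 0 is not evidence that the partners avoid each other. A 0 was also found for 12 of the 32 other anchors compared below. The caller used peaks as reference, and whether each of these pairs could have been called was not tested. In the stretch from the first to the last partner, 4.12 Mb long, 40 of 87 interactions (46%) involved the hub. The stretch is bounded by the hub's own partners, so a high share of the hub in it follows from the choice. It held 21.1 interactions per Mb with those of the hub and 11.4 without them, beside 19.2 on chromosome 6 as a whole and 16.2 in the genome.

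The share of partner bins with an HLF motif was near that of all anchor bins, and below that of dense anchors. An HLF motif was present in 11 of the 40 partner bins (27.5%, 16.1 to 42.8), beside 31.5% of all anchor bins, 30.1% of the partners of other anchors with 10 or more interactions, and 66.7% of those anchors themselves. Motif matches were not chosen on contact counts. Among the partners with a motif, the median contact count was 37 (n = 11, range 18 to 157), and among those without it was 29 (n = 29, range 15 to 103). The ranges overlap over most of their length. The motif was present in 8 of 21 bins below (38.1%, 20.8 to 59.1) and in 3 of 19 above (15.8%, 5.52 to 37.6), with overlapping intervals. The motif of AP-1, another family of basic leucine zipper factors (TGANTCA, both strands), was found in 30 of the 40 (75%) and in 79.2% of all anchor bins, and 3 times in the hub. The partner bins had a median GC content of 36.9% (range, 31.8 to 44.5), beside 41.1% for all anchor bins, which moves with how often motifs rich in A and T occur. Its part in these shares was not tested.

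Promoters were searched in much shorter windows than the bins above, so their shares cannot be compared with those of the bins. In the RefSeq promoter table (GRCh38.p14), which gives 300 bases around each start, the HLF motif was found in 1.01% of 35116 promoters and the wider form in 1.77%. The genes joined to the hub and their neighbors had 27 promoters in the table, and 0 held the HLF motif while 2 held the wider form, both of them of FAXC. With a share of 1.01% over all promoters, a 0 among 27 does not set these genes apart. COQ3, ASCC3 and TSTD3 had no entry.

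Compared with the other 32 anchor bins that had 30 or more interactions, the hub stood high for its few strongest contacts and near the bottom for distance. Its largest contact count of 157 ranked 5 of 33 (others, 43 to 336, median 99.5), and its 1657 read pairs in all ranked 6 (others, 829 to 2519), the same place as its number of interactions. Its median contact count of 30.5 ranked 10 (others, 24 to 39.5) and its median ratio of 1.32 ranked 9 (others, 1.04 to 1.72). The 3 contact counts of at least 100 ranked 2, level with 2 other anchors (others, up to 5, with 16 anchors at 0). In contrast, the median distance of 270 kb ranked 29 (others, 195 to 705 kb, median 339 kb). The share of single bin pairs, 67.5%, ranked 30 (others, 56.7 to 94.1%), which means that its contacts were merged from several bin pairs more often, in 13 of 40 (32.5%), beside 7.69% of the list. Only 2 of these anchors had a higher share of partners with no other interaction (others, 46.7 to 100%, median 80.9%). In the share of partners with an HLF motif the hub ranked 19 (others, 5 to 46.7%). With 0 links between its own partners it was level with 12 other anchors, the highest number being 4.

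Over the region, 16 of the 21 protein-coding genes listed from MANEA to GRIK2 had an interaction in the gene or within 10 kb of it, beside 64.5% of all protein-coding genes, and 8 had one at a bin with a start site, beside 26.6%. These genes had a median length of 68.9 kb, beside 27.5 kb for all protein-coding genes, and longer genes offer more bins. The region was also chosen around a dense bin, so these shares are not evidence about it beyond its selection. The hub was the other end for 10 of the 21 genes. At COQ3 (3 of 3), PNISR (5 of 5) and USP45 (5 of 5), every interaction was with the hub. The windows of neighboring genes overlap, so an interaction can count for more than 1 gene. The contact with 106 read pairs, for example, counts for both PNISR and USP45. For FBXL4 it was 2 of 8, for MMS22L 2 of 7, for FAXC 2 of 4, for ASCC3 4 of 6, for MCHR2 1 of 2 and for CCNC 1 of 2. The window of TSTD3 contains the hub because the gene ends beside it, and its 44 interactions therefore include all 40.

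Genes without any were MANEA, FUT9, NDUFAF4, POU3F2 and SIM1. POU3F2 and SIM1 encode transcription factors of the developing nervous system, and both lie within reach of the hub. UFL1, FHL5 and GPR63 had 2 interactions each, KLHL32 had 5 and GRIK2, a kainate receptor subunit, had 1, none of them with the hub.

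**Figure D3:**
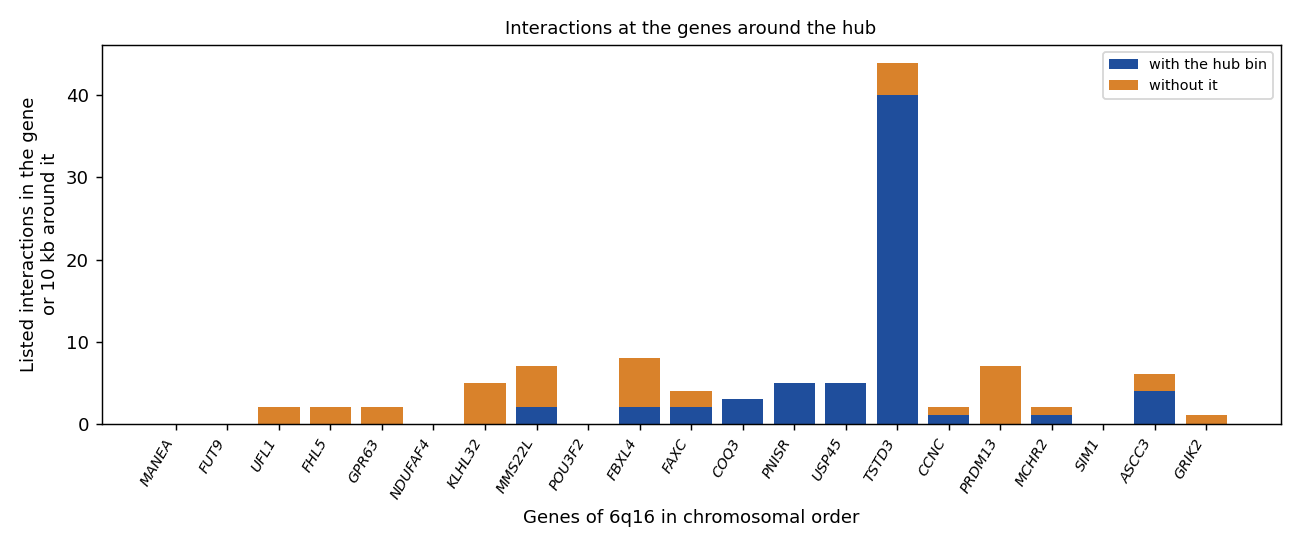
Number of listed interactions in each gene of 6q16 or within 10 kb of it, in chromosomal order, split into those with the hub bin (blue) and those without it (orange). The window of TSTD3 includes the hub bin, and COQ3, PNISR and USP45 have blue bars only, at 3, 5 and 5.

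The relatives of the 2 genes lie elsewhere in the genome, and their counts give a scale. In the kinase module of Mediator, 6 of 7 genes had an interaction and 3 had one at a bin with a start site, beside 64.5% and 26.6% of all protein-coding genes. CCNC and CDK8 had 2 each, CDK19 had 5, MED13 had 6, MED13L had 15 and MED12L had 31, while MED12 had 0. Those with a start-site interaction were MED12L, MED13 and MED13L. Longer genes offer more bins, and MED12L is 352 kb long beside 26.4 kb for CCNC.

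In the PRDM family, 11 of 15 genes had an interaction and 9 had one at a bin with a start site, beside 64.5% and 26.6% of all protein-coding genes. The family also had a longer median length, 84.5 kb beside 27.5 kb. PRDM11 had the most, 34, and its largest contact count was 65 (50.2 to 82.8). PRDM15 followed with 17, PRDM1, the regulator of plasma cell formation also known as BLIMP1, and PRDM10 had 9 each, PRDM4 had 8, PRDM13 had 7, and PRDM8, PRDM14 and PRDM16 had 3 each. PRDM13 is 8.8 kb long, the shortest of the 15, and the median number over all protein-coding genes was 1. PRDM2, PRDM6, PRDM12 and MECOM had 0. The 3 interactions of PRDM7 and 1 of PRDM9 are uncertain, since the genes are near-identical copies and read mapping there was not tested.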

How the data were processed

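HiChIP with an antibody against E2A (TCF3) was measured in 2 replicates of 1 condition, which the labels give as TCF3 knockout HAL-01 cells. Per the labels and methods, the authors trimmed reads with Trim Galore 0.6.6, merged the replicates, aligned them to hg38 with BWA-MEM, extracted pairs with pairtools without removing duplicates, called MACS2 peaks as reference and ran FitHiChIP (5-kb bins, 50 kb to 3 Mb, q-value under 0.01, nearby contacts merged). The version of FitHiChIP is not given in the sources used here. The deposited contact counts are raw read pairs, and sumCC adds them up within each merged group. The deposited p-values and q-values are those of the caller. The deposited fraction is the share of significant bin pairs within a merged group. All listed lines were used, and the list holds significant interactions only, so the depth of the libraries is not known from it and an interaction that is not listed is not shown to be absent.

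Interactions, distances and ranks were counted on the whole list, with genes from GENCODE release 44, exact Poisson intervals for contact counts, Wilson intervals for shares and binomial order-statistic intervals for medians (95% each). Interactions of 1 bin share their source and are not replicates, so the intervals over hub interactions and partner bins are descriptive. No test between samples was possible. Motifs were exact matches in hg38, and the counting was tested on simulated data. The hub, the members and the gene and motif lists were chosen with earlier results of these data known. Genes named are PRDM13, CCNC, those with start sites in or within 10 kb of a partner bin, the listed families (of which 1 gene is not reported here) and neighbors, and the partners with the 5 largest contact counts and smallest p-values. The genes overlapping other partner bins were named after their values were seen. Alternatives were stricter q-values, distances up to 1 Mb, a minimum contact count of 20, wider bins, wider or no gene flanks, the wider motif and other rank measures. The software was pysam 0.24.0, scipy 1.17.1, pandas 2.3.3, numpy 2.4.6 and matplotlib 3.10.9 under Python 3.11.15.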

Additional observations from a re-analysis of the deposited data

How the results depend on the processing

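Of 25 alternative values, 18 stayed within the stated measure of the reported one and 7 moved. With q-values under 1e-05 the hub had 24 interactions and its rank was 17. The share of partners with an HLF motif was 45% with the wider form and 77.5% when each bin was widened by 1 bin on either side, where all anchor bins gave 45.3% and 63.5%. The share with a start site was 35% when start sites within 10 kb counted, beside 47.9% of all anchor bins. With 20 kb around the gene, PRDM13 had 48 interactions, because that window takes in the hub, and CCNC had 4. A count of 1 line per merged group, chosen after seeing the data, gave 37 for the hub. Leaving out a replicate was not possible, since the list holds merged replicates. No paired analysis was possible because the 2 replicates form a single group. Contacts under 50 kb, which include those between the hub and the start sites of PRDM13 and CCNC, and pairs below the q-value threshold are outside the list.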

Other observations

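How many interactions pass over other bins was not counted, so the number at the hub has no scale beside it. Here 10 interactions passed over the hub without using its own bin, with a median distance of 928 kb. The largest had 75 read pairs (59 to 94) and joined the bin directly below the hub, at 99585001 in the last part of TSTD3, with the gene-free bin at 99710001, 125 kb away. The bin at 99710001 had 6 interactions in all. Both bins of this interaction lie inside the range of the hub's merged group with the sumCC of 993, so it is not separate from the hub in the caller's grouping. Counted by merged bin ranges, the hub had 41 interactions instead of 40. Of the other 9 that pass over the hub, 5 are those of the PRDM13 window. The largest of the rest, with 41 read pairs (29.4 to 55.6), joined gene-free bins at 98970001 and 99865001.

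The region held other anchors of moderate density, each of them free of genes. The bin at 98655001, between MMS22L and FBXL4, had 11 interactions, with contact counts from 15 to 45 and a reach of 2.965 Mb. The bin at 99090001 had 9, from 17 to 36. Neither was joined to the hub. The first held no HLF motif and the other held 1. Taken without the hub, the 47 interactions of the stretch between the first and last partner had a median contact count of 24, which equals that of the list.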
